A study of Mus musculus with 12 samples.

Results

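The genes of glucose uptake, glycolysis, lactate handling, the pentose phosphate pathway and the hypoxia-inducible factor (HIF) system were followed in the spleens of ficolin KO and WT mice, with and without lipopolysaccharide (LPS). The set was a list of 39 gene symbols chosen by function, and 34 of them had at least 1 probe set of their own among the 22180 genes measured on the arrays. Gpi1, Eno1 and G6pdx had no row annotated to them, and Aldoa and Tkt had only rows shared with other genes, so these 5 were not analysed here.

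The spleens came from 4 groups of 3 female C57BL/6 mice aged 10 weeks, with 1 Affymetrix Mouse Gene 2.0 ST array per mouse. Ficolin KO spleens were taken from LPS challenged and from naive mice, and so were WT spleens. The ficolin KO mice lacked both ficolin-A and ficolin-B in every tissue, and ficolins are soluble recognition molecules that start the lectin pathway of complement. LPS, the endotoxin of the Gram-negative outer membrane, had been given intraperitoneally at 10 mg/kg and spleens were taken after 6 h, while naive mice were untreated, so the effect of LPS and that of an injection cannot be told apart. The comparisons ask how the metabolic genes differed after LPS, and whether that depended on ficolins.

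Glycolysis turns glucose into pyruvate, with hexokinase and phosphofructokinase as its main control points, and lactate dehydrogenase and monocarboxylate transporters dispose of the product as lactate. The pentose phosphate pathway branches off at glucose-6-phosphate and yields NADPH and ribose. HIF-1, whose alpha subunit is marked for destruction by oxygen-dependent prolyl hydroxylases, induces many of these genes, and myeloid cells exposed to LPS are known to shift towards glycolysis.

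Arrays of the same group correlated at 0.987 to 0.992 over all genes, arrays of the other genotype in the same treatment at 0.984 to 0.992, and LPS challenged with naive arrays at 0.940 to 0.958. Fcna, the gene of ficolin-A, measured 3.98 to 4.85 in KO spleens and 7.92 to 9.38 in WT spleens on the log2 scale. Fcnb was dim in both genotypes (3.30 to 3.57 in KO spleens and 3.18 to 3.69 in WT spleens), so its deletion could not be checked on these arrays. Some of the marker lists of spleen cells moved with treatment. B cell markers were lower in 7 of 9 in KO mice and 8 of 9 in WT mice after LPS, T cell markers were lower in 8 of 8 in both genotypes, and red pulp macrophage markers were lower in 10 of 12 and higher in 1 of 12, Spic (0.41 in KO mice, 0.55 in WT mice), in both. For B cells their summed linear intensity was 3513 to 3876 in LPS challenged KO mice, against 10942 to 12876 in naive KO mice, and 3451 to 3774 in LPS challenged WT mice, against 11131 to 12584 in naive WT mice. For T cells it was 1081 to 1283 in LPS challenged KO mice, against 2934 to 3233 in naive KO mice, and 1235 to 1344 in LPS challenged WT mice, against 2730 to 3051 in naive WT mice. For red pulp macrophages it was 6113 to 7311 in LPS challenged KO mice, against 12832 to 14253 in naive KO mice, and 6505 to 7094 in LPS challenged WT mice, against 13028 to 13894 in naive WT mice. No marker measured of any list lay below the median intensity on all arrays, which does not by itself show that a cell type was present. The neutrophil marker Ly6g, for example, averaged 3.91 to 4.32 by group, near the array medians of 4.17 to 4.27. Monocyte markers were higher in 1 of 9 and lower in 3 of 9 in KO mice, and higher in 1 and lower in 4 in WT mice. Erythroid markers were called in 0 of 8 in KO mice and higher in 1 of 8 in WT mice. Their summed intensity varied widely within groups, from 1199 to 4618 in naive WT mice. Megakaryocyte and platelet markers were lower in 1 of 7 in KO mice and called in 0 of 7 in WT mice. Neutrophil markers were called higher in 0 of 13 and lower in 1 of 13 in each genotype, and their summed intensity overlapped, at 1264 to 1656 in LPS challenged KO mice, against 1173 to 2533 in naive KO mice, and 1085 to 1569 in LPS challenged WT mice, against 1181 to 2212 in naive WT mice. Exocrine pancreas markers were lower in all 14 of the markers measured in LPS challenged KO mice (301 to 8302, against 13561 to 36267 in naive KO mice), and in 0 of 14 in WT mice (12110 to 41713 in LPS challenged mice, against 8140 to 27359 in naive mice). In bulk spleen RNA, a smaller share of cells of 1 type and less of a transcript in each cell cannot be told apart. The part of these markers in the results below was not tested, though a fit with the pancreas markers as a covariate is given.

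After LPS the set moved in both directions, with more members higher than lower. In ficolin KO mice 16 of the 34 members were higher and 7 lower at an adjusted p under 0.05 (limma, Benjamini-Hochberg over all 22180 genes), where 12.9% of all genes were called higher and 14.9% lower. In WT mice 17 were higher and 8 lower, where 13.4% of all genes were called higher and 16.7% lower. Higher in both genotypes were 15 members (10.6% of all genes) and lower in both were 6 (12.4% of all genes), while 7 members were called in neither. The median log2 fold-change of the members was 0.38 in KO mice, against -0.01 over all genes there, and 0.32 in WT mice, against 0.01 over all genes. With a fold-change over 2 added, 6 members were higher in KO mice (4.22% of all genes) and 6 in WT mice (4.05% of all genes), and they were the same 6 genes, Hk2, Pfkfb3, Slc2a6, Pfkp, Hif1a and Hk3 (3.55% of all genes passed in both). Over 2-fold lower were 0 members in KO mice (4.41% of all genes; 7 were lower at any fold-change, and 3 with ordinary least squares in place of the moderated fit) and 1 member, Pdk2, in WT mice (4.94% of all genes).

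**Figure D1:**
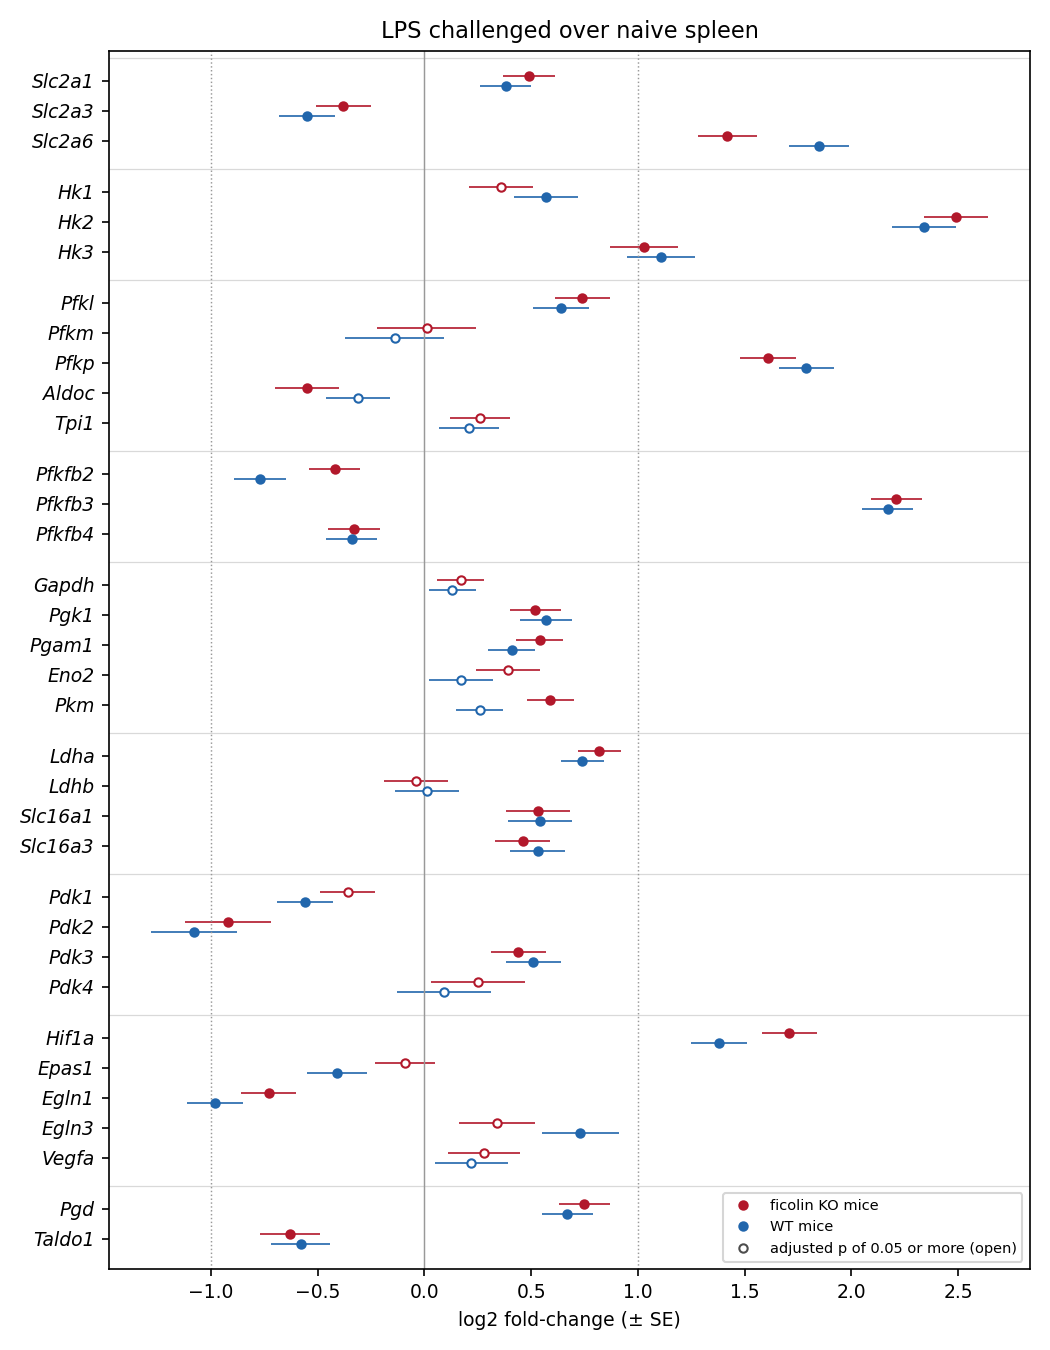
Log2 fold-change of LPS challenged over naive spleen for the 34 measured genes, grouped from glucose transporters at the top to pentose phosphate enzymes at the bottom, in ficolin KO mice (red) and WT mice (blue); bars are the standard errors of the limma fit, filled points have an adjusted p under 0.05 and dotted lines mark 2-fold. Hk2 lies furthest to the right, at 2.49 in KO mice and 2.34 in WT mice, and Pdk2 furthest to the left, at -0.92 in KO mice and -1.08 in WT mice.

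The promoters of the 4 members with over 2-fold rises that hold the HIF-binding core ACGTG are shown because Hif1a, which encodes a subunit of the factor that binds it, is among the transcripts that rose. Each is the 300-base RefSeq window, 250 bases before to 50 bases after the annotated start, on GRCm38.p6 and 5′ to 3′ on the gene's strand. Capitals mark ACGTG on either strand (CACGT when read on the strand shown), and CACGTG, which holds it on both strands. Hk2 lies at chr6:82774405-82774704 (minus strand), Pfkfb3 at chr2:11502041-11502340 (minus), Hif1a at chr12:73907617-73907916 (plus) and Hk3 at chr13:55021336-55021635 (minus).
Hk2: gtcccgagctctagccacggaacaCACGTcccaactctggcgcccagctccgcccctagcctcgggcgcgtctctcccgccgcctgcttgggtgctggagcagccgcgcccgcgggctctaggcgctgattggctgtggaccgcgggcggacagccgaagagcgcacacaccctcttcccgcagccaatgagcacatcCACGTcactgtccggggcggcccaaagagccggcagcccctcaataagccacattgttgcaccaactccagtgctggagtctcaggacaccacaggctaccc
Pfkfb3: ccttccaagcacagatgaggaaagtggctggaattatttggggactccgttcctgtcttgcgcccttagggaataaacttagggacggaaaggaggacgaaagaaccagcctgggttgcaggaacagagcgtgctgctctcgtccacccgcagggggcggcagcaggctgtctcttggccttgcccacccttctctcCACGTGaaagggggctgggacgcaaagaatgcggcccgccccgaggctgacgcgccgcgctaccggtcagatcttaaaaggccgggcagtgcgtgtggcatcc
Hif1a: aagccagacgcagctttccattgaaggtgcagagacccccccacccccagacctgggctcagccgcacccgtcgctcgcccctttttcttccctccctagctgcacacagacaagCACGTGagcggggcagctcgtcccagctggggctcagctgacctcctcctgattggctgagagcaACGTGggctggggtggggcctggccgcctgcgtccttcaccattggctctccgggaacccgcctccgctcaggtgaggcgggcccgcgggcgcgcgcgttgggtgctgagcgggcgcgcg
Hk3: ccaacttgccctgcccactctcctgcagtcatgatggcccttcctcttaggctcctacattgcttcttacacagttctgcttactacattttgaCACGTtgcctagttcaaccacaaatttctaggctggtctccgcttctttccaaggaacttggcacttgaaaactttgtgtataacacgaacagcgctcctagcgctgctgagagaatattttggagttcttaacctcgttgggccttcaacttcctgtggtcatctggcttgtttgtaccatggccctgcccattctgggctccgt
In Hk2 the matches begin 226 and 52 bases before the start, and in Hk3 156 bases before it. The Pfkfb3 window shown has CACGTG beginning 53 bases before the start, and a second Pfkfb3 start has ACGTG beginning 60 bases before it. Hif1a has CACGTG 135 bases and ACGTG 70 bases before its start. ACGTG was present in a window of 21 of the 32 measured members with a window (65.6%), of 4 of the 6 genes with over 2-fold rises (66.7%) and of 4038 of 16990 genes measured on the arrays (23.8%; 21.8% of all 27025 genes with a window). The members had more windows per gene, and counted by window the shares were 24 of 46 (52.2%) and 21.4% of 20611. Of the 6 members lower in both genotypes, Egln1, Pdk2 and Pfkfb2 hold ACGTG too, Pfkfb4 and Taldo1 do not, and Slc2a3 has no window. CACGTG occurred in 7 of the 32 members (21.9%) and 9.19% of the measured genes. The NF-kB consensus, searched on both strands, occurred in 5 of the 32 members (15.6%), in 0 of the 6 and in 7.34% of the measured genes. A match is only a string of letters and shows no binding.

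Among the glucose transporters, Slc2a6 rose strongly, Slc2a1 rose slightly and Slc2a3 fell. Slc2a6 encodes GLUT6, a transporter of lysosomal membranes in macrophages. It measured 7.54, 7.35 and 7.21 in LPS challenged KO mice, against 5.80, 5.86 and 6.17 in naive KO mice. In WT mice it measured 7.45, 7.47 and 7.32 after LPS, against 5.70, 5.34 and 5.66 in naive mice. Every challenged array lay above every naive array, and the log2 fold-change was 1.42 ± 0.14 in KO mice (SE, limma adjusted p = 1.4e-06) and 1.85 ± 0.14 in WT mice (9.16e-08). Slc2a1, the widely expressed GLUT1, was higher by 0.49 ± 0.12 in KO mice (limma adjusted p = 0.00665) and by 0.38 ± 0.12 in WT mice (0.0284). The WT call for Slc2a1 was lost without naive array 1 or 2 or challenged array 1 or 3, with values of 0.31 to 0.48 over all arrays left out and limma adjusted p up to 0.114. Its second, dimmer probe set gave 0.39 in KO mice and 0.48 in WT mice, neither past the threshold. Slc2a3, the high-affinity GLUT3 of neurons and leukocytes, averaged 6.34 ± 0.04 in LPS challenged and 6.72 ± 0.23 in naive KO mice (SD, n = 3 each), a change of -0.38 (limma adjusted p = 0.045). In WT mice it averaged 6.29 ± 0.08 after LPS and 6.85 ± 0.18 in naive mice, a change of -0.55 (limma adjusted p = 0.0044). The KO call for Slc2a3 was lost when any 1 of 9 of the 12 arrays was left out (-0.49 to -0.26), and held only without WT naive array 1 or 2 or KO naive array 1.

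The hexokinases, which trap glucose in the cell as glucose-6-phosphate, were higher after LPS for Hk2 and Hk3 in both genotypes and for Hk1 in WT mice, and Hk2 had the largest rise of the 34 members in both. Hk2 encodes the inducible hexokinase bound to mitochondria. It measured 7.59, 7.86 and 7.45 in LPS challenged KO mice, against 5.09, 5.14 and 5.20 in naive KO mice. In WT mice it measured 7.92, 7.32 and 7.52 after LPS, against 5.23, 5.19 and 5.31 in naive mice. The groups were separated by more than 2 log2 units in both genotypes, with a 5.62-fold rise in KO mice (log2 2.49 ± 0.15, limma adjusted p = 9.71e-09) and a 5.07-fold rise in WT mice (log2 2.34 ± 0.15, 1.64e-08). Hk3, the hexokinase of myeloid cells, measured 6.70, 6.35 and 6.49 in LPS challenged KO mice, against 5.35, 5.49 and 5.61 in naive KO mice. In WT mice Hk3 measured 6.90, 6.22 and 6.50 after LPS, against 5.54, 5.29 and 5.46 in naive mice. No challenged array overlapped a naive one, and Hk3 rose by 1.03 ± 0.16 in KO mice (limma adjusted p = 0.000131) and 1.11 ± 0.16 in WT mice (6.31e-05). Its change sat just past 2-fold and was 0.96 without KO naive array 1, 0.94 without KO LPS array 1 and, in WT mice, 0.93 without WT LPS array 1. Hk1, the housekeeping form, averaged 6.43 ± 0.05 in LPS challenged and 6.07 ± 0.31 in naive KO mice (SD, n = 3 each; log2 difference 0.36, limma adjusted p = 0.092). In WT mice Hk1 averaged 6.60 ± 0.21 after LPS and 6.03 ± 0.10 in naive mice and was called higher (0.57, limma adjusted p = 0.00938), a call lost without WT LPS array 3 (adjusted p = 0.0543).

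**Figure D2:**
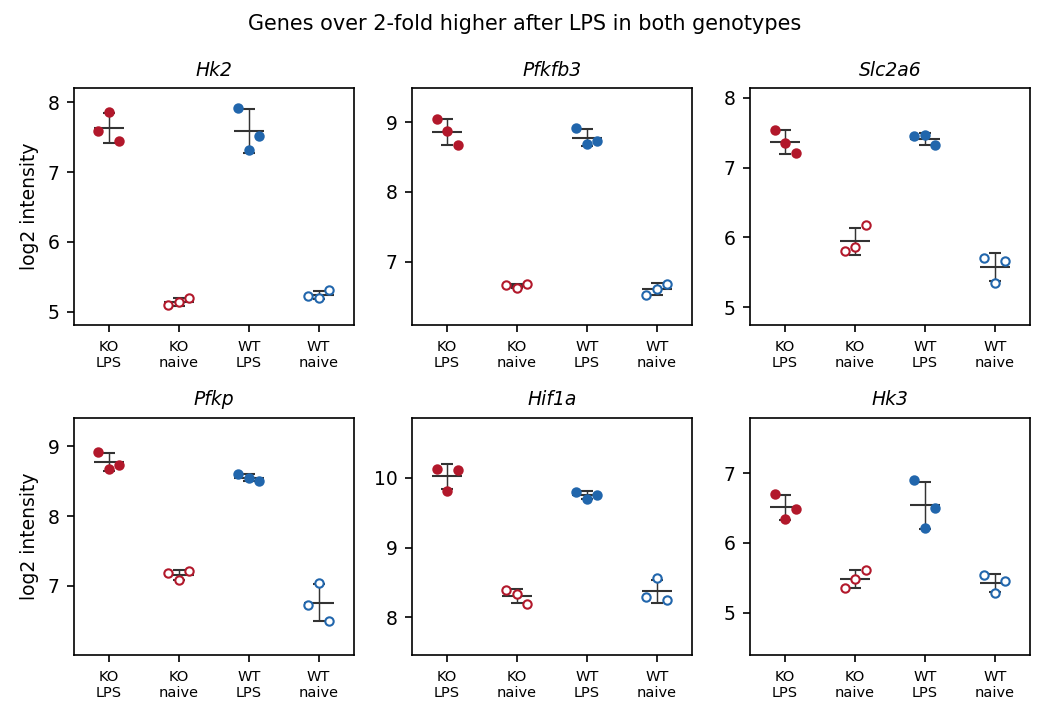
Log2 intensity on each of the 12 arrays for the 6 genes over 2-fold higher after LPS in both genotypes; points are mice (LPS challenged filled, naive open, ficolin KO red, WT blue), and the line and bars give the mean ± SD of 3 arrays. Every vertical axis spans the same number of log2 units, and in each gene all challenged arrays lie above all naive arrays, from Hk2 at 7.32 to 7.92 against 5.09 to 5.31 to Hk3 at 6.22 to 6.90 against 5.29 to 5.61.

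Of the upper glycolysis enzymes, the phosphofructokinases Pfkp and Pfkl, which carry out the committed step, rose, and the other measured members were not called higher. Pfkp, the platelet-type subunit, measured 8.92, 8.67 and 8.73 in LPS challenged KO mice, against 7.19, 7.08 and 7.21 in naive KO mice. In WT mice Pfkp measured 8.60, 8.54 and 8.50 after LPS, against 6.73, 7.04 and 6.50 in naive mice. All challenged arrays were above all naive ones, with log2 fold-changes of 1.61 ± 0.13 in KO mice (limma adjusted p = 2.64e-07) and 1.79 ± 0.13 in WT mice (8.71e-08). Pfkl, the liver-type subunit, rose by 0.74 ± 0.13 in KO mice (limma adjusted p = 0.000427) and 0.64 ± 0.13 in WT mice (0.00133). The muscle-type subunit Pfkm was below the median intensity on all arrays and differed by 0.01 in KO mice and -0.14 in WT mice, so no change could be read from it. Aldoc, the brain-type aldolase, was dim, with a log2 difference of -0.55 in KO mice (limma adjusted p = 0.0094) and -0.31 in WT mice (0.129). Triosephosphate isomerase, Tpi1, differed by 0.26 in KO mice and 0.21 in WT mice, neither past the threshold (limma adjusted p = 0.201 in KO mice and 0.313 in WT mice).

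The bifunctional kinase-phosphatases that set the level of fructose-2,6-bisphosphate, the strongest activator of phosphofructokinase, moved in opposite directions. Pfkfb3, the inducible form with the highest kinase activity, measured 9.05, 8.87 and 8.67 in LPS challenged KO mice, against 6.66, 6.62 and 6.68 in naive KO mice. In WT mice Pfkfb3 measured 8.92, 8.69 and 8.73 after LPS, against 6.53, 6.61 and 6.68 in naive mice. The naive arrays lay between 6.53 and 6.68, far below every challenged array, and the rise was 4.63-fold in KO mice (log2 2.21 ± 0.12, limma adjusted p = 4.14e-09) and 4.51-fold in WT mice (log2 2.17 ± 0.12, 3.99e-09). Pfkfb2, the heart form, fell by 0.42 ± 0.12 in KO mice (limma adjusted p = 0.0161), a call lost without KO naive array 1 or KO LPS array 2, and by 0.77 ± 0.12 in WT mice (0.000158). Pfkfb4 was called lower in both genotypes by a narrow margin, with -0.33 in KO mice (limma adjusted p = 0.0482) and -0.34 in WT mice (0.0357). The Pfkfb4 call was lost without any 1 of 10 arrays in KO mice (-0.41 to -0.24), where it held only without WT naive array 2 or KO LPS array 2. In WT mice it was lost without naive array 2 or 3 or challenged array 2 or 3 (-0.40 to -0.30).

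Of the 5 lower glycolysis enzymes measured, which yield the ATP of the pathway, Pgk1, Pgam1 and Pkm rose in KO mice and Pgk1 and Pgam1 in WT mice, all by less than 2-fold. Phosphoglycerate kinase, Pgk1, averaged 8.28 ± 0.13 in LPS challenged and 7.77 ± 0.09 in naive KO mice (SD, n = 3 each; log2 0.52, limma adjusted p = 0.00355). In WT mice Pgk1 averaged 8.26 ± 0.14 after LPS and 7.70 ± 0.12 in naive mice (0.57, 0.00169). Phosphoglycerate mutase, Pgam1, rose by 0.54 ± 0.11 in KO mice (limma adjusted p = 0.00128) and 0.41 ± 0.11 in WT mice (0.01). Its second, dimmer probe set gave 0.48 in KO mice and 0.13 in WT mice, and the mean of both rows no longer passed in WT mice (0.27, limma adjusted p = 0.101). Pkm, which encodes muscle pyruvate kinase, averaged 9.65 ± 0.06 in LPS challenged and 9.06 ± 0.12 in naive KO mice (0.59, limma adjusted p = 0.000705), while in WT mice it averaged 9.46 ± 0.14 after LPS and 9.20 ± 0.04 in naive mice and was not called (0.26, 0.0917). The difference between these responses did not pass the test (0.33, interval -0.01 to 0.67, limma adjusted p = 0.998). Gapdh, often used as a reference gene, differed by 0.17 in KO mice and 0.13 in WT mice and was not called. It has near-identical pseudogenes, 8 further rows shared with other genes were left out, and 3 rows of its own gave no call, so its value is uncertain. The neuronal enolase Eno2 was dim and was not called (0.39 in KO mice, 0.17 in WT mice).

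Of the members for lactate production and export, Ldha, Slc16a1 and Slc16a3 rose by less than 2-fold. Ldhb was below the median intensity on all arrays (-0.04 in KO mice, 0.01 in WT mice). Ldha, the subunit that favours lactate formation, averaged 6.79 ± 0.05 in LPS challenged and 5.97 ± 0.07 in naive KO mice (SD, n = 3 each), a rise of 0.82 ± 0.10 (limma adjusted p = 2.15e-05). In WT mice Ldha averaged 6.77 ± 0.05 after LPS and 6.03 ± 0.11 in naive mice, a rise of 0.74 ± 0.10 (5.14e-05). The challenged and naive arrays of Ldha did not overlap in either genotype. The lactate transporters Slc16a1 (MCT1) and Slc16a3 (MCT4) rose by 0.53 and 0.46 in KO mice (limma adjusted p = 0.0141 and 0.0148) and by 0.54 and 0.53 in WT mice (0.0116 and 0.00597). The Slc16a1 call was lost without KO naive array 1 or KO LPS array 3 in KO mice (0.43 to 0.64) and without WT naive array 3 in WT mice (0.40 to 0.69). The Slc16a3 call was lost in KO mice without KO LPS array 1 or 2 (0.38 to 0.62). With ordinary least squares the Slc16a1 call was lost in both genotypes (adjusted p = 0.0872 in KO mice and 0.116 in WT mice). The KO call of Slc16a3 was lost there too (adjusted p = 0.141).

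The pyruvate dehydrogenase kinases, which switch off the entry of pyruvate into the citric acid cycle, did not move as a family: Pdk2 fell, Pdk3 rose and Pdk4 was not called. Pdk2 measured 4.86, 4.91 and 4.51 in LPS challenged KO mice, against 5.54, 5.87 and 5.64 in naive KO mice. In WT mice Pdk2 measured 4.54, 5.09 and 4.56 after LPS, against 5.40, 6.25 and 5.77 in naive mice. Challenged arrays were below naive ones in both genotypes, and naive WT mouse 2 was the highest of all. Pdk2 fell by 0.92 ± 0.20 in KO mice (limma adjusted p = 0.00255) and 1.08 ± 0.20 in WT mice (0.000721), and the WT value was below 2-fold without WT naive array 2 (-0.86) or WT LPS array 1 or 3 (-0.98 and -0.99), with array weights (-0.94) or after another quantile normalization (-0.99), and missed the threshold with ordinary least squares (adjusted p = 0.0967). Pdk3 rose by 0.44 ± 0.13 in KO mice (limma adjusted p = 0.0192) and 0.51 ± 0.13 in WT mice (0.00708), and the KO call was lost without KO naive array 1 or 3 or KO LPS array 3 (0.31 to 0.52). Pdk1, the kinase best known as a HIF target, differed by -0.36 in KO mice (limma adjusted p = 0.0562) and fell by 0.56 in WT mice (0.00425), a call lost when its brighter row was averaged with a row near the floor of the scale (-0.21, adjusted p = 0.171). Pdk4, a kinase induced by fasting, differed by 0.25 in KO mice and 0.09 in WT mice, and its naive WT arrays were spread over 7.28, 8.44 and 8.09.

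Of the HIF system, Hif1a rose and its hydroxylase Egln1 fell in both genotypes. Hif1a, the oxygen-regulated subunit of HIF-1, measured 10.13, 9.81 and 10.11 in LPS challenged KO mice, against 8.39, 8.34 and 8.19 in naive KO mice. In WT mice Hif1a measured 9.80, 9.69 and 9.75 after LPS, against 8.29, 8.57 and 8.25 in naive mice. Every challenged array was above every naive array, and Hif1a rose by 1.71 ± 0.13 in KO mice (limma adjusted p = 8.21e-08) and 1.38 ± 0.13 in WT mice (7.17e-07). Its second, dimmer probe set rose by 1.13 in KO mice and 0.96 in WT mice. Epas1, which encodes the alpha subunit of HIF-2, measured 8.26, 8.18 and 7.89 in LPS challenged KO mice, against 8.12, 8.10 and 8.37 in naive KO mice. In WT mice Epas1 measured 8.0, 8.04 and 7.99 after LPS, against 8.17, 8.67 and 8.42 in naive mice. The Epas1 groups overlapped in KO mice (-0.09 ± 0.14, limma adjusted p = 0.732) and not in WT mice, where it was called lower by a small margin (-0.41 ± 0.14, 0.0405). That WT call was lost without WT naive array 2 or 3 or any 1 of the WT LPS arrays (-0.53 to -0.28).

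Egln1, which encodes PHD2, the main prolyl hydroxylase acting on HIF alpha subunits, averaged 7.39 ± 0.26 in LPS challenged and 8.12 ± 0.05 in naive KO mice (SD, n = 3 each; -0.73, limma adjusted p = 0.000421). In WT mice Egln1 averaged 7.10 ± 0.04 after LPS and 8.08 ± 0.11 in naive mice (-0.98, 2.6e-05). Its WT fall passed 2-fold without WT naive array 2 (-1.04) or WT LPS array 2 (-1.01). Egln3 (PHD3), a hydroxylase that HIF itself induces, averaged 6.09 ± 0.17 in LPS challenged and 5.75 ± 0.39 in naive KO mice and was not called there (0.34, limma adjusted p = 0.186). In WT mice Egln3 averaged 6.05 ± 0.27 after LPS and 5.32 ± 0.05 in naive mice and rose by 0.73 (0.00501). Vegfa, the angiogenic growth factor and a classical HIF target, differed by 0.28 in KO mice and 0.22 in WT mice and was not called (limma adjusted p = 0.257 in KO mice and 0.37 in WT mice).

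**Figure D3:**
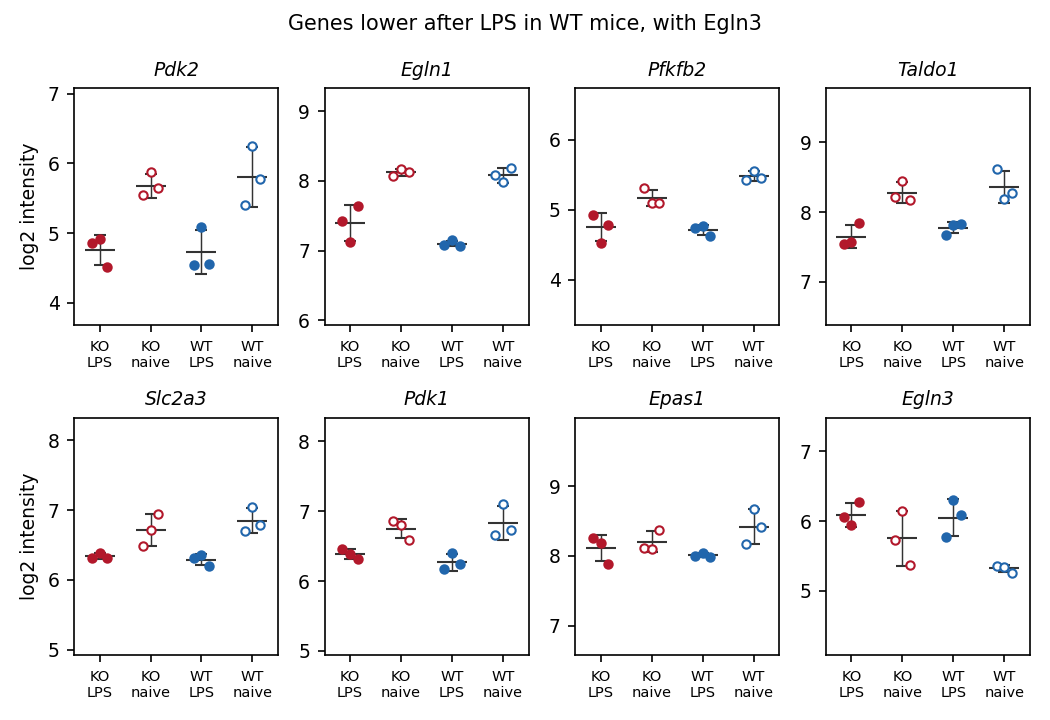
Log2 intensity on each array for 7 genes called lower after LPS in WT mice, with Egln3, which was higher there; points are mice (LPS challenged filled, naive open, ficolin KO red, WT blue), lines and bars give the mean ± SD of 3 arrays, and all vertical axes span the same number of log2 units. Of the genes shown, Pdk2 and Egln1 have the largest mean differences in both genotypes, while the KO arrays of Epas1 overlap at 7.89 to 8.26 after LPS and 8.10 to 8.37 in naive mice.

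The pair of pentose phosphate enzymes measured moved oppositely. Pgd, the NADPH-producing 6-phosphogluconate dehydrogenase of the oxidative arm, averaged 8.84 ± 0.10 in LPS challenged and 8.09 ± 0.21 in naive KO mice (SD, n = 3 each), a rise of 0.75 ± 0.12 (limma adjusted p = 0.000183). In WT mice Pgd averaged 8.78 ± 0.06 after LPS and 8.11 ± 0.08 in naive mice, a rise of 0.67 ± 0.12 (0.000498). Taldo1, the transaldolase of the non-oxidative arm, averaged 7.65 ± 0.17 in LPS challenged and 8.28 ± 0.15 in naive KO mice, a fall of 0.63 (limma adjusted p = 0.00243). In WT mice Taldo1 averaged 7.78 ± 0.08 after LPS and 8.36 ± 0.23 in naive mice, a fall of 0.58 (0.00411). G6pdx, the first enzyme of the oxidative arm, and Tkt were among the genes not analysed here.

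Because a call in 1 gene and its absence in a relative does not show that they differed, the log2 difference of 2 related genes was taken within each array and compared between LPS challenged and naive mice. The exact two-sided permutation test exchanged treatment labels within genotype (400 arrangements) and used the mean change of KO and WT mice. The p-value of a pair thus covers both genotypes together and is not a test in each. Of 14 pairs put to this permutation test, 11 reached the smallest p possible, 0.005 (0.0064 adjusted over the 14 pairs). That p was fixed in advance for Pfkfb3 over Pfkfb2, Slc2a6 and Slc2a1 over Slc2a3, and Pdk3 over Pdk1. In these pairs 1 gene rose and the other fell without overlap of arrays in both genotypes, so the test adds nothing to their separate changes. Pfkfb3 gained on Pfkfb2 by 2.63 in KO mice and 2.94 in WT mice. Hk2 gained on Hk1 by 2.13 in KO mice and 1.78 in WT mice, and Hk3 on Hk1 by 0.67 in KO mice and 0.54 in WT mice. Slc2a6 gained on Slc2a3 by 1.80 in KO mice and 2.40 in WT mice, and Slc2a1 on Slc2a3 by 0.87 in KO mice and 0.94 in WT mice.
Hif1a gained on Epas1 by 1.80 in KO mice and 1.79 in WT mice, and Egln3 on Egln1 by 1.07 in KO mice and 1.72 in WT mice. Pfkp gained on Pfkl by 0.88 in KO mice and 1.15 in WT mice, and Ldha on the dim Ldhb by 0.85 in KO mice and 0.73 in WT mice. Pdk3 gained on Pdk1 by 0.80 in KO mice and 1.08 in WT mice, and Pdk4 on Pdk2 by 1.17 in each genotype. The dim Pfkm lost against Pfkl by 0.73 in KO mice and 0.78 in WT mice (exact permutation p = 0.01, adjusted 0.0117). Ldhb and Pfkm were below the median intensity on all arrays, so their pairs repeat the rises of Ldha and Pfkl. These pairs do not show that the relatives parted, although Ldha over Ldhb was among those at the smallest p. Pfkfb4 gained on Pfkfb2 by 0.43 ± 0.05 in WT mice (SE), while in KO mice the arrays overlapped (0.10 ± 0.20). For this pair the exact permutation p over both genotypes was 0.04 (adjusted 0.0431), and no movement is shown in KO mice. Slc16a3 and Slc16a1 did not part detectably (-0.07 in KO mice and -0.02 in WT mice, exact permutation p = 0.765).

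**Figure D4:**
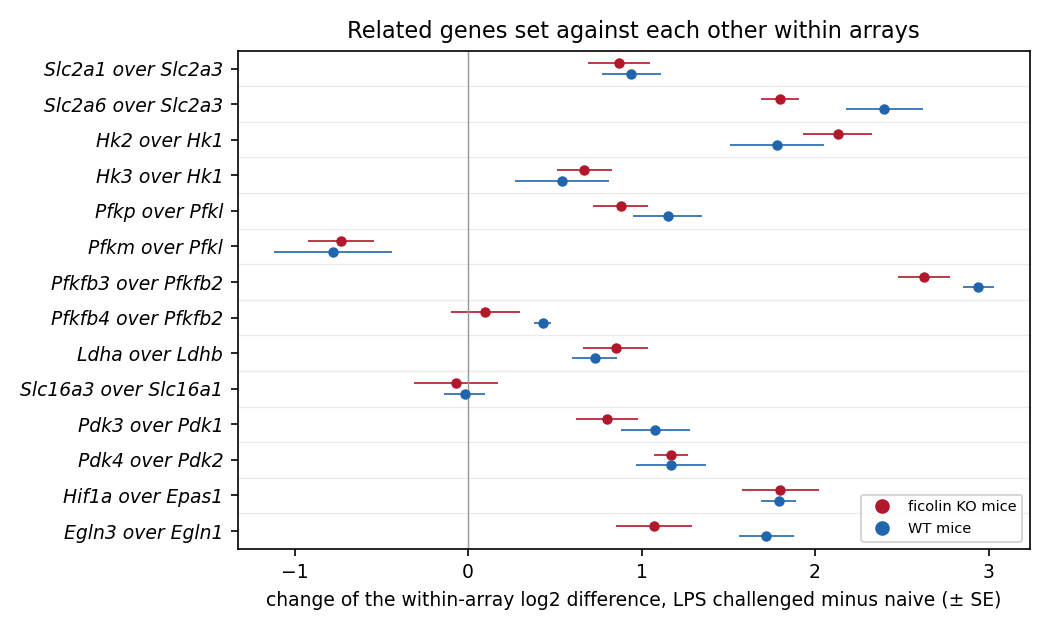
Change, LPS challenged minus naive, of the within-array log2 difference between the 2 genes of each pair, in ficolin KO mice (red) and WT mice (blue); bars are standard errors from 3 arrays per group. Pfkfb3 over Pfkfb2 lies furthest right, at 2.63 in KO mice and 2.94 in WT mice, and Slc16a3 over Slc16a1 lies at 0 within its error.

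Outside the 34 members, 65 of 73 other genes of the same pathways were measured, of which 14 were higher and 9 lower in KO mice and 15 higher and 10 lower in WT mice, with medians of 0.03 in KO mice and 0.06 in WT mice. Over all genes 12.9% were higher and 14.9% lower in KO mice and 13.4% higher and 16.7% lower in WT mice, so the shares of lower calls were no larger than the background. Of 19 other glycolysis genes, 2 were higher and 1 lower in KO mice and 3 higher and 2 lower in WT mice. Of 9 genes for the entry of pyruvate into mitochondria, 0 were higher and 2 lower in KO mice, and 1 was higher and 2 lower in WT mice. Other pentose phosphate genes gave 2 higher and 1 lower of 8 in KO mice and 1 higher and 1 lower in WT mice. With so few genes in each list, nothing is read from these 3 counts against those shares.
The hypoxia-responsive genes moved in both directions, with 8 of 21 higher and 5 lower in each genotype. Past 2-fold in both genotypes were Edn1, the vasoconstrictor endothelin-1 (3.29 in KO mice, 3.52 in WT mice), Errfi1, a feedback inhibitor of the EGF receptor (1.93 in KO mice, 1.78 in WT mice), and Adm, the vasodilator adrenomedullin (1.64 in KO mice, 1.74 in WT mice). The transcriptional repressor Bhlhe40 (1.19 in KO mice, 1.10 in WT mice) and Ndrg1 (1.17 in KO mice, 1.12 in WT mice) also rose past 2-fold. Hmox1, the heme-degrading enzyme, fell by 1.12 in KO mice and 1.13 in WT mice. Hmox1 is also on the red pulp macrophage list, of which 10 of 12 markers fell.
Of 8 oxygen-sensing genes, 2 rose and 0 fell in each genotype. They were Egln2, the remaining prolyl hydroxylase of the family (1.02 in KO mice, 1.06 in WT mice), and Siah2, a ubiquitin ligase that targets prolyl hydroxylases (1.42 in KO mice, 1.48 in WT mice). The HIF prolyl hydroxylases thus differed in direction, with Egln1 lower and Egln2 higher in both genotypes. Among the other glycolysis genes the monocarboxylate transporter Slc16a7 (MCT2) fell by 2.01 in KO mice and 2.00 in WT mice, while Slc16a1 and Slc16a3 rose.

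Genotype was tested directly within each treatment. By the rule of a fold-change over 1.5 with an unadjusted p under 0.05, 0 of 34 members differed between KO and WT mice after LPS (0.46% of all genes) and 0 of 34 between naive KO and WT mice (0.185% of all genes). At an adjusted p under 0.05 (limma), 0 of 34 differed after LPS (0.0135% of all genes) and 0 in naive mice (0.00451% of all genes), and ordinary least squares also gave 0 in both. At an unadjusted p under 0.05 the counts were 2 of 34 after LPS (5.18% of all genes) and 5 of 34 in naive mice (2.85% of all genes), and 1 in each with ordinary least squares. The log2 differences of KO minus WT ranged from -0.16 to 0.29 after LPS and from -0.31 to 0.44 in naive mice. Their 95% intervals lay within 1.5-fold for 33 of 34 members after LPS and 29 of 34 in naive mice. These counts include genes too dim to give a bound, Ldhb in both treatments and Pfkm in naive mice.

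The 2 members below an unadjusted p of 0.05 after LPS were Egln1 (0.29, interval 0.02 to 0.57) and Hif1a (0.27, interval 0.00 to 0.54), both higher in KO mice with a limma adjusted p of 0.93. In naive mice they were Aldoc (0.44, interval 0.13 to 0.75), Egln3 (0.43, 0.05 to 0.81), Pfkp (0.40, 0.12 to 0.69), Slc2a6 (0.38, 0.08 to 0.67) and Pfkfb2 (-0.31, -0.57 to -0.05), with limma adjusted p of 0.999. Naive Slc2a6 measured 5.80 to 6.17 in KO mice and 5.34 to 5.70 in WT mice, and naive Pfkp measured 7.08 to 7.21 in KO mice and 6.50 to 7.04 in WT mice. The arrays of the genotypes did not overlap in these genes, in naive Aldoc, Egln3 and Pfkfb2, or in Pfkp and Hif1a after LPS. The share of all genes without overlap was not counted, so nothing is read from this. Egln3 met the 1.5-fold rule without KO naive array 3 (0.62, limma adjusted p = 1), its KO naive arrays being spread from 5.37 to 6.14.

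The LPS response itself, KO minus WT, was tested with the interaction term. It differed at an adjusted p under 0.05 for 0 of 34 members (0.00902% of all genes; 0 with ordinary least squares) and at an unadjusted p under 0.05 for 1 of 34 (3.53% of all genes; 2 with ordinary least squares). That member was Slc2a6, whose response was smaller in KO mice (a difference of -0.42, interval -0.84 to 0.00, limma adjusted p = 0.998). For the members called in 1 genotype only, the response difference was 0.33 for Pkm (interval -0.01 to 0.67), 0.32 for Epas1 (interval -0.11 to 0.75), 0.20 for Pdk1 (interval -0.20 to 0.60), -0.20 for Hk1 (interval -0.66 to 0.25), -0.24 for Aldoc (interval -0.68 to 0.20) and -0.39 for Egln3 (interval -0.93 to 0.15), each with a limma adjusted p of 0.998. The median standard error of a response difference was 0.20, and only 19 of 34 intervals lay within 1.5-fold, that of the dim Ldhb among them. Smaller differences between genotypes were therefore not resolvable with 3 mice a group.

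**Figure D5:**
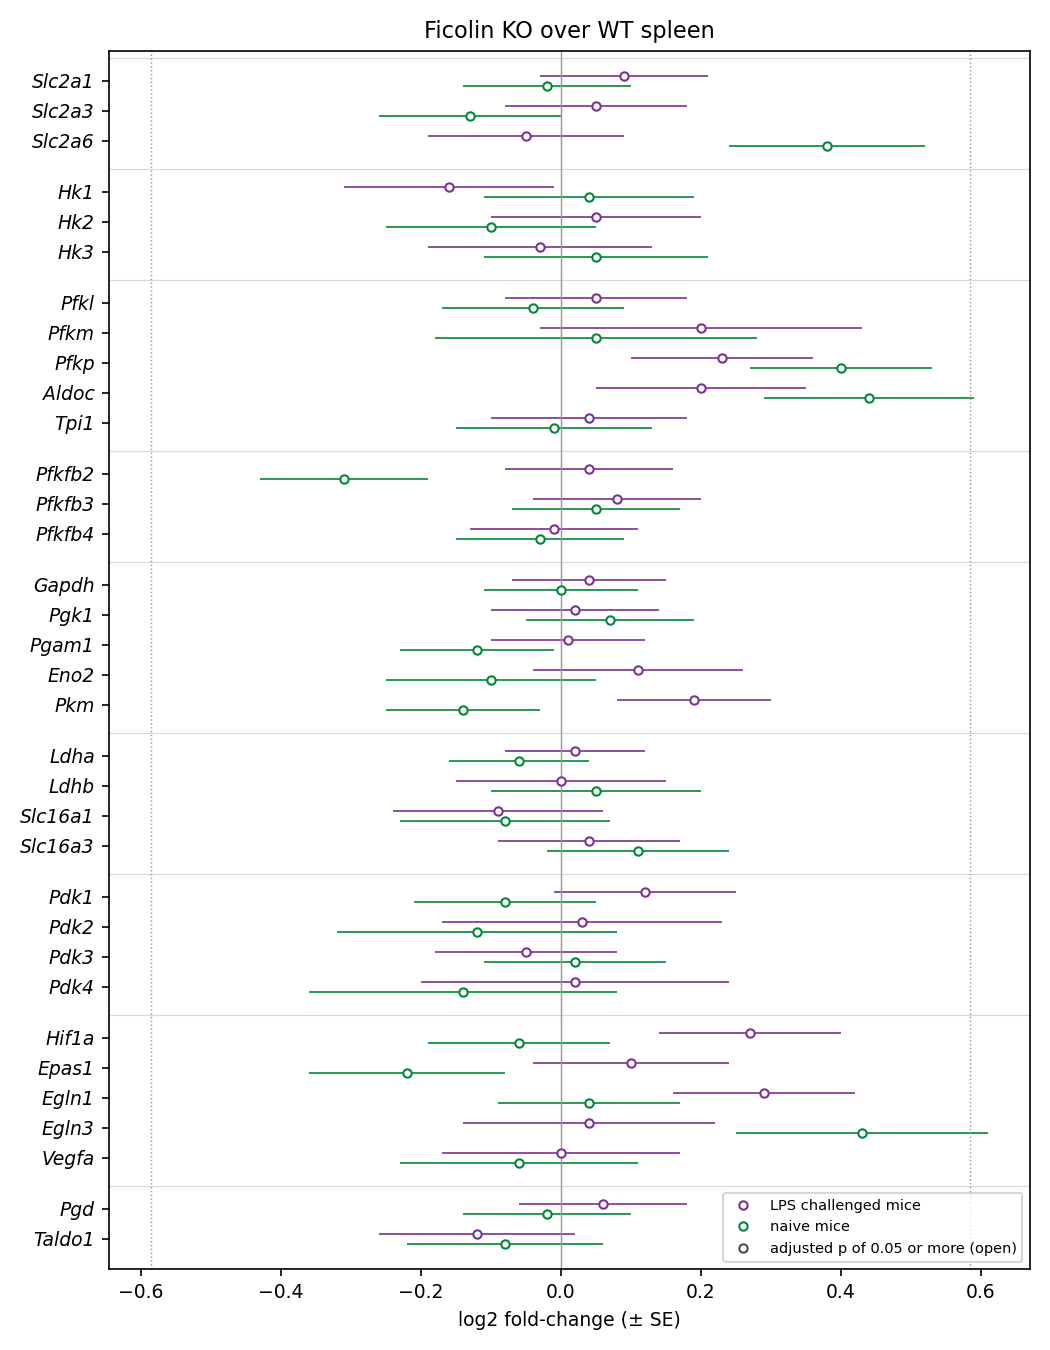
Log2 fold-change of ficolin KO over WT spleen for the 34 measured genes in LPS challenged mice (purple) and naive mice (green); bars are the standard errors of the limma fit, open points have an adjusted p of 0.05 or more and dotted lines mark 1.5-fold. No point reaches a dotted line, the furthest being naive Aldoc at 0.44 and naive Egln3 at 0.43.

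The summed intensity of the pancreas markers was lowest in LPS challenged KO mice (301 to 8302), with a slight overlap with naive WT mice (8140 to 27359). Their mean log2 level was 4.12 to 8.43 in LPS challenged KO mice and 9.18 to 10.78 in naive KO mice. A covariate that separates these groups widens the standard error of the KO change (0.22 against 0.16 for Hk3). Lost precision and a part of these markers in the KO calls therefore cannot be told apart. With the mean of the pancreas markers as a covariate, the KO counts were 10 higher and 1 lower in place of 16 and 7, and the lower call that remained was Egln1. The 6 genes over 2-fold higher kept their KO call, with Hk3 at 0.71 (limma adjusted p = 0.043), and 12 KO calls were lost. Among these, the fold-change was smaller for Slc16a3 (0.16, limma adjusted p = 0.667, against 0.46 without the covariate), Slc2a1 (0.29, limma adjusted p = 0.365, against 0.49) and Pkm (0.44, limma adjusted p = 0.0944, against 0.59). Others stayed near their value and missed the threshold, such as Pdk2 (-0.95, limma adjusted p = 0.0598, against -0.92), Taldo1 (-0.58, limma adjusted p = 0.0948, against -0.63), Slc16a1 (0.53, limma adjusted p = 0.172, against 0.53) and Pgk1 (0.51, limma adjusted p = 0.09, against 0.52). The WT counts were 17 higher and 6 lower in that fit, and the counts for genotype stayed at 0. Of the 48 calls over both genotypes, 23 held under every alternative run, 10 of them in KO mice and 13 in WT mice. Both the KO and the WT call held for 9 genes, which were Hk2, Hk3, Pfkp, Pfkfb3, Slc2a6, Ldha, Pgd and Hif1a as genes that rose and Egln1 as the gene that fell.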

How the data were processed

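Total RNA from 12 spleens was hybridised to Affymetrix Mouse Gene 2.0 ST arrays. Values deposited by the authors are log2 intensities to 2 decimals, 1 per probe set and array, from quantile normalization and RMA in Qlucore Omics Explorer. Array medians were 4.17 to 4.27. The number of arrays limits the precision.

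Of 41345 rows, 23521 had 1 gene symbol in GEO's platform annotation, 1820 had several and 16004 had none. Rows with several symbols were not used. For the 1082 genes with several rows the row with the highest mean was taken, leaving 22180 genes. limma 3.58.1 in R 4.3.3 (lmFit, contrasts, eBayes) was fitted to all 12 arrays as 4 group means (8 residual and 6.7 prior degrees of freedom), after a test on simulated data. Adjusted p-values are Benjamini-Hochberg over all genes. The study's methods name no array test, but the thresholds given in the study's results were used. These were a fold-change over 2 for LPS and, for genotype, a fold-change over 1.5 with p under 0.05. Each array was 1 mouse, and p-values measure the spread between these mice only.

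The members and all gene lists were chosen with earlier results of these data known, so none is independent evidence. Values on every array are given for members past the stricter LPS call in either genotype and for Hif1a, Epas1 and Pfkfb3. Other pathway genes are named where past that call in both genotypes. Levels of different probe sets were not compared. Promoters came from RefSeq (GRCm38.p6), where 32 of the 34 members had a window, and Slc2a3 and Epas1 had none. Alternatives were least squares, fits of 2 groups, a replicate block, array weights, trended eBayes, other scaling, row and dim-gene rules, a pancreas covariate and leaving out each array.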

Additional observations from a re-analysis of the deposited data

How the results depend on the processing

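Of the 48 called changes, 0 reversed under any alternative, 23 kept their call under all of them and 25 lost it under at least 1. With ordinary least squares the members lower after LPS numbered 3 in KO mice and 2 in WT mice, against 7 and 8. With the pancreas markers as a covariate the KO counts were 10 higher and 1 lower. The count of members over 2-fold lower in WT mice, 1 in the fit reported, was 0 with ordinary least squares, with array weights and with another quantile normalization, and 0 to 2 when 1 array was left out. Leaving out 1 array gave 15 to 18 higher and 5 to 8 lower in KO mice, 15 to 17 higher and 6 to 8 lower in WT mice, and 0 to 1 member different between naive KO and WT mice. Pfkfb4 in both genotypes, Epas1 in WT mice and Slc2a3 in KO mice lost their call with array medians subtracted and with all rows tested. The median of all genes stayed within 0.05 of 0 under every scaling.

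Replicate numbers showed no clear pairing of the samples. Same-numbered arrays of different groups had deviations correlated at -0.217 to 0.249 (18 pairs), and different-numbered ones at -0.23 to 0.205 (36 pairs). Such ranges cannot exclude a pairing. With a replicate block, 16 members were higher and 5 lower in KO mice and 17 higher and 7 lower in WT mice, and 3 single calls were lost. With 3 mice a group, the median standard error of 0.14 limits what small changes can be seen, and dim genes such as Pfkm and Ldhb give no bound.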
